A study of Homo sapiens with 145 samples.

Results

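Human fibrosarcoma cells of the established line HT-1080 received 0.3 µM etoposide (ETP) for 24 h and were compared with cells given the DMSO vehicle in the etoposide experiment. The comparison used 10 of the 145 arrays of the series, 5 from dosed cells and 5 from vehicle cells, chosen by their titles and carrying the replicate numbers 1, 3, 4, 5 and 6 in both groups. The number 2 arrays, 1 dosed and 2 vehicle, were left out, a choice made with their responses known and described further on. The study also held methyl methanesulfonate and quercetin (QUE), each, like etoposide, at 7 doses with a vehicle group of its own. The neighbouring etoposide doses of 0.1 and 1 µM, with 5 replicates each of the same numbers, were used to place the response at 0.3 µM. Cells of the dosed and vehicle groups shared the line, the medium with serum and the vehicle. Nothing in the labels ties the replicate numbers to separate cultures, so the p-values measure the spread between these arrays, which may be technical.

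Etoposide is a topoisomerase II poison: it holds the enzyme in the state in which it has cut both DNA strands, and collisions with polymerases turn these complexes into double-strand breaks. Breaks activate the kinases ATM and ATR, which stabilise the transcription factor p53, and p53 induces genes for cell cycle arrest, death, repair and its own restraint. HT-1080 carries functional p53. Arrest through CDKN1A keeps retinoblastoma family proteins on E2F and DREAM complexes, which repress genes for DNA replication at E2F letters in their promoters and genes for mitosis at the cell cycle homology region (CHR).

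Promoters of 4 genes that fell at 0.3 µM are printed because they hold the letters of these elements, MCM6 and GINS2 for replication, KIF15 and CENPA for mitosis. Each is 300 bases from RefSeq (GRCh38.p14), 250 before the gene's start and 50 after it, at chr2:135876394-135876693 (minus strand), chr16:85688905-85689204 (minus strand), chr3:44761544-44761843 (plus strand) and chr2:26785806-26786105 (plus strand). Capitals mark only the E2F letters in the first 2 and only the CHR letters in the last 2, on either strand. In MCM6, 4 overlapping matches merge into 2 runs of capitals.
MCM6: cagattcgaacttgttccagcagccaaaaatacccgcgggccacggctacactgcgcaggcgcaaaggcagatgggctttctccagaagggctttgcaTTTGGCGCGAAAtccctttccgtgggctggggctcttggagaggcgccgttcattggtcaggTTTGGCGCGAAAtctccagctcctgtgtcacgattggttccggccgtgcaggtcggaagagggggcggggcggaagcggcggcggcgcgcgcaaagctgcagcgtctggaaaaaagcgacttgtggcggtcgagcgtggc
GINS2: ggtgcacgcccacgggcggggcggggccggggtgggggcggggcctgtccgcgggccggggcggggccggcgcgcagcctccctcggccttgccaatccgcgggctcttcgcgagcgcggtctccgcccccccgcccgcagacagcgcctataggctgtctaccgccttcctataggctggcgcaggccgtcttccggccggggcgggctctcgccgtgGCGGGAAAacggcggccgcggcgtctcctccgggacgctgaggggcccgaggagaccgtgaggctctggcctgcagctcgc
KIF15: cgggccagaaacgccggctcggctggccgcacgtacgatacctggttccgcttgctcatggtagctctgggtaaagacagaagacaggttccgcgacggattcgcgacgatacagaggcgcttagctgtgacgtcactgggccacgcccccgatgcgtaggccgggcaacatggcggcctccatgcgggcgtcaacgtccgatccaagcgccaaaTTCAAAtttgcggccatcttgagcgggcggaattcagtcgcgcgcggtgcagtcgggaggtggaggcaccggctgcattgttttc
CENPA: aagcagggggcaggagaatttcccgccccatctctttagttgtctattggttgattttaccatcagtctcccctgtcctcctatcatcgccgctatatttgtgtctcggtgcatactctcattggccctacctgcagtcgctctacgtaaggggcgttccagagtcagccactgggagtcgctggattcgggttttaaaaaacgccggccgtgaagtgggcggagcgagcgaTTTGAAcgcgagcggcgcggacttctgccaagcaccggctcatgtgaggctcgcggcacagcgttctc
The E2F search used the words TTTCCCGC, TTTCGCGC, TTTGCCGC and TTTGGCGC, and the CHR search the word TTTGAA, each with its reverse complement. Where the table gave several starts for a gene, the first was used, and 9650 of the 11714 genes tested had a promoter. E2F letters stood in 5.52% of these promoters and CHR letters in 9.94%. KIF15 and CENPA also hold E2F words, GCGCCAAA and TTTCCCGC, left in small letters above. The printed promoters are therefore not a clean split of the 2 elements. In the mitotic lists described below, E2F letters stood in 5 of 51 promoters, 9.80%. A match is a description of the letters and not of a bound site.

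The arrays gave log2 probe set values from GCRMA, an array normalization, and 11714 genes had a value of at least 4 in at least 5 of the 40 etoposide and vehicle replicates. Calls required a Benjamini-Hochberg adjusted p under 0.05 from limma, fitted across all genes with a block for the replicate number, and a fold change of at least 1.5. At 0.3 µM 604 genes were called, 5.16% of those tested, with 386 higher (3.3%) and 218 lower (1.86%). Of these, 107 rose and 42 fell at least 2-fold, and 14 rose and 2 fell at least 4-fold. The 5 dosed values did not overlap the 5 vehicle values in 1261 genes (10.8%). The adjusted p alone passed 5163 genes, so the fold limit set the number of calls. The median difference over all genes tested was 0.01 on the log2 scale. Means under 4 were treated as not above background, which held for the vehicle mean of 55 of the genes called higher and the dosed mean of 12 of those called lower, and the size of such a change is uncertain.

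Most mesenchymal markers of the line were above background. Of 16 mesenchymal markers on the array, 14 had a mean of at least 4 in both groups, vimentin (VIM) at 13.21 in dosed and 13.27 in vehicle cells, and 0 of the 14 measured were called. Epithelial markers were mixed. EPCAM and CDH1 stood at 2.92 and 2.82 in dosed cells and at 3.00 and 2.78 in vehicle cells. The keratins KRT18, KRT8, KRT15 and KRT7 stood at 11.19, 9.18, 8.30 and 7.02 in dosed cells. In vehicle cells they stood at 11.19, 8.92, 7.88 and 6.50. KRT5, KRT14, KRT16 and KRT19 were under 4 in both groups. PTPRC, the pan-leukocyte marker, stood at 3.13 in dosed and 3.06 in vehicle cells. The blood cell markers CD68, TREM1 and CD3D stood at 6.57, 6.31 and 4.40 in dosed cells. In vehicle cells they stood at 6.18, 5.41 and 4.09. The other blood cell markers except TREM2, given below, were under 4 in both groups. Of 11 housekeeping controls 0 were called, with a median difference of −0.03. In bulk RNA, fewer cells of a type and less RNA per cell cannot be told apart.

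Of 10 regulators that act on p53 in feedback, 5 were called higher in dosed cells. Over all genes tested 3.3% were called higher and 1.86% lower. These shares stand beside each later count of list members against vehicle. MDM2, the ubiquitin ligase that marks p53 for degradation, had log2 values of 11.30, 10.85, 11.00, 11.22 and 11.21 in dosed cells, against 9.98, 9.87, 9.77, 10.11 and 9.99 in vehicle cells (numbers 1, 3, 4, 5 and 6 in this and later sentences). All 5 dosed values lay above all 5 vehicle values. The log2 difference was 1.17 ± 0.06 (SE; adjusted p = 2.9e-17), a 2.26-fold rise, and its 6 other probe sets were called higher too. PPM1D, the phosphatase that switches off ATM and p53, had 9.50, 9.09, 9.40, 9.65 and 9.73 in dosed cells, against 7.80, 7.92, 7.92, 7.88 and 7.86 in vehicle cells. The vehicle values had an SD of 0.05 and the dosed values one of 0.25, with number 3 the lowest, and the rise was 3.02-fold. TP53INP1, which promotes p53 phosphorylation, rose 4.29-fold, with a mean of 10.05 ± 0.25 in dosed and 7.95 ± 0.15 in vehicle cells (SD, n = 5 each; limma adjusted p = 9.8e-21). PHLDA3, an inhibitor of AKT, and TRIM22, a tripartite motif protein, rose by 1.09 and 1.24. None was called lower, and the list's median difference was 0.79. The other 5 ranged from −0.26 in MDM4 to 0.50 in CCNG1.

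The arrest gene CDKN1A, which encodes the cyclin-dependent kinase inhibitor p21, rose 2.79-fold. Its log2 values were 10.46, 10.36, 10.29, 10.36 and 10.46 in dosed cells, against 8.83, 9.10, 8.90, 9.11 and 8.61 in vehicle cells. The dosed values were closer to each other than the vehicle values were, and the groups did not overlap (difference 1.48 ± 0.08 SE; adjusted p = 5.4e-18). PLK3, a stress-responsive kinase, and SESN1, a sestrin that restrains mTORC1, rose by 1.40 ± 0.12 and 1.29 ± 0.06. These were the 3 members called among 10 arrest genes, whose median difference was 0.54. GADD45A (0.57), SESN2 (0.57) and PLK2 (0.48) stood below the fold limit of 0.58 on the log2 scale.

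**Figure D1:**
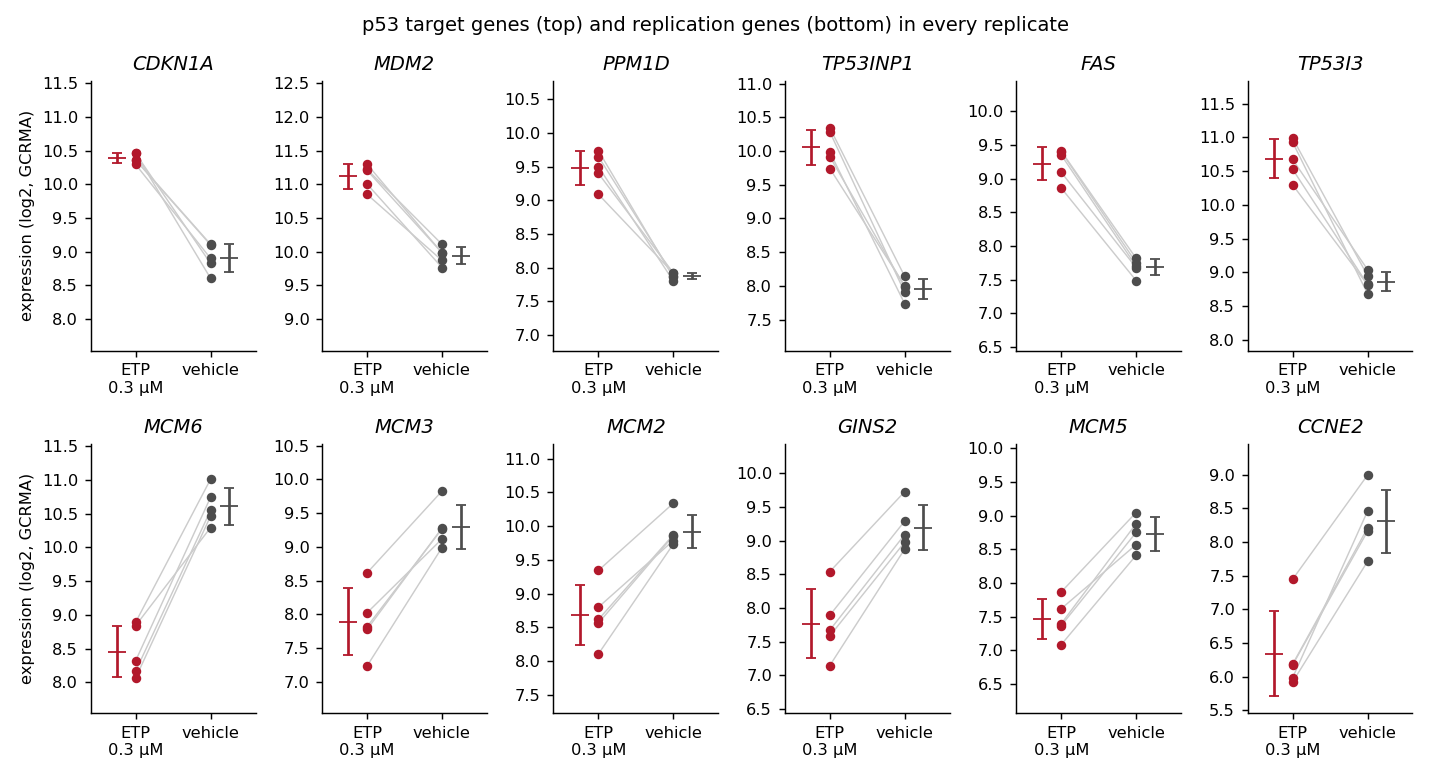
Expression (log2, GCRMA) of 6 p53 target genes (top) and 6 replication and S phase genes (bottom) in each replicate of the ETP 0.3 µM group (left, red) and the vehicle group (right, grey). Lines join arrays of the same number, and horizontal marks with bars give the mean and SD of 5 values. The dosed and vehicle values of each of the 12 genes do not overlap.

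Death genes rose unevenly. FAS, a death receptor, had 9.35, 8.86, 9.09, 9.40 and 9.41 in dosed cells, against 7.70, 7.49, 7.68, 7.75 and 7.82 in vehicle cells. The lowest dosed value, in number 3, was more than 1 log2 unit above the highest vehicle value, and the rise was 2.90-fold (adjusted p = 6.3e-20). TP53I3, a quinone oxidoreductase induced by p53, rose 3.53-fold, with a mean of 10.68 ± 0.29 in dosed and 8.86 ± 0.14 in vehicle cells (SD, n = 5 each). SPATA18, which acts in mitochondrial quality control, rose by 1.56 ± 0.13, TRIAP1 by 0.81 ± 0.05 and BBC3, the BH3-only protein PUMA, by 0.70 ± 0.10. Of 12 measured death targets 5 were called higher and 0 lower, and all 12 differences were above 0, with a median of 0.48. BAX (0.48), PMAIP1 (0.26) and TNFRSF10B (0.12), the pore former, the BH3-only protein NOXA and a TRAIL receptor, were not called.

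Repair and metabolic targets of p53 were also among the genes called higher. DDB2, a damage sensor of nucleotide excision repair, had 9.89, 9.71, 10.01, 10.08 and 9.99 in dosed cells, against 8.47, 8.62, 8.77, 8.44 and 8.49 in vehicle cells. The groups lay about 1 log2 unit apart at their closest, and the difference was 1.38 ± 0.07. XPC, another damage sensor, POLH, a translesion polymerase, and RRM2B, a ribonucleotide reductase subunit, rose by 1.22, 0.86 and 0.73, so that 4 of 6 genes of this list were called. Among 20 further targets 13 were called higher and 0 lower, with a median of 0.85. ACER2, an alkaline ceramidase, rose 4.13-fold to a mean of 6.22 ± 0.42 in dosed cells, against 4.18 ± 0.22 in vehicle cells. CYFIP2, SERTAD1, DRAM1 and KITLG, which encodes the KIT ligand, rose by 1.18, 1.10, 0.96 and 0.94. BBC3 lost its call with the number 2 arrays kept (0.57), and APAF1, the apoptosome scaffold, lost its call with the mean of its probe sets (0.58, against 0.70).

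Of 22 genes for the replicative helicase and origin licensing, 11 were called lower and 0 higher, with a median of −0.70. MCM6, a subunit of the replicative helicase, had log2 values of 8.89, 8.84, 8.06, 8.17 and 8.32 in dosed cells, against 11.01, 10.30, 10.46, 10.55 and 10.74 in vehicle cells. The highest dosed value was over 1 log2 unit below the lowest vehicle value, and the fall was 4.46-fold (difference −2.16 ± 0.09 SE; adjusted p = 5.0e-20). GINS2, a subunit of the helicase activator GINS, had 8.54, 7.59, 7.15, 7.67 and 7.89 in dosed cells, against 9.73, 8.98, 8.88, 9.09 and 9.29 in vehicle cells. Number 1 was highest and number 4 lowest in both groups, and the difference was −1.42 ± 0.09. The helicase subunits MCM3, MCM5 and MCM2 fell by 1.40, 1.26 and 1.23, each with groups that did not overlap. The licensing factor CDT1 stood at 9.17 ± 0.29 in dosed and 9.17 ± 0.20 in vehicle cells (SD, n = 5 each), and GINS4 had the highest difference of the list, 0.08.

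The polymerase list moved less evenly. POLA1, the catalytic subunit of DNA polymerase alpha, fell by 1.18 ± 0.09 and POLE2, a subunit of polymerase epsilon, by 1.06 ± 0.11. POLD3 and RFC4, a subunit of the clamp loader, fell by 0.66 and 0.62, calls that were lost with number 2 kept (−0.44 and −0.37). PCNA, the sliding clamp and itself a p53 target, rose: it had 12.14, 11.65, 11.87, 12.13 and 12.15 in dosed cells, against 11.60, 11.26, 11.21, 11.37 and 11.34 in vehicle cells. The dosed value of number 3 was the closest to the vehicle range, and the difference was 0.63 ± 0.06. In all 5 of 21 genes were called lower and 1 higher, with a median of −0.27. Of 12 genes for nucleotide supply 0 were called, with a median of −0.31. The E2F letters stood in 17 of the 36 promoters of the helicase and polymerase lists, 47.2%, and in 8 of the 13 among their members called lower, 61.5%. They stood in 16.7% of the promoters of all genes called lower and in 5.52% of those of all genes tested. The p53 lists, with 0 members called lower, had them in 8 of 49 promoters, 16.3%, and all genes called higher in 4.52%.

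Some regulators of the entry into S phase fell too. CCNE2, cyclin E2, had 7.44, 6.18, 5.92, 5.99 and 6.18 in dosed cells, against 8.99, 8.16, 7.71, 8.45 and 8.20 in vehicle cells. The dosed value of number 1 stood far above the other 4, yet below every vehicle value, and the fall was 3.89-fold (adjusted p = 1.1e-13). SKP2, which targets the inhibitor p27 for degradation, the phosphatase CDC25A and the inhibitor CDKN2D fell by 0.77, 0.65 and 0.68. These were the 4 called of 20 cyclins, kinases and inhibitors. Cyclin B1 (CCNB1, −0.20), CDK2 (−0.02) and CDK1 (0.29) were not called. Among 17 genes of the E2F and retinoblastoma family, E2F8, a repressor, fell by 1.08 and MYBL2 by 0.76, while E2F1 (−0.15), E2F3 (−0.01) and RB1 (0.25) were not called. CDC25A and MYBL2 lost their calls without the replicate block (adjusted p of 0.18 and 0.094). CCNE2 differed by −1.19 and lost its call with number 2 kept and no replicate block (adjusted p = 0.11).

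**Figure D2:**
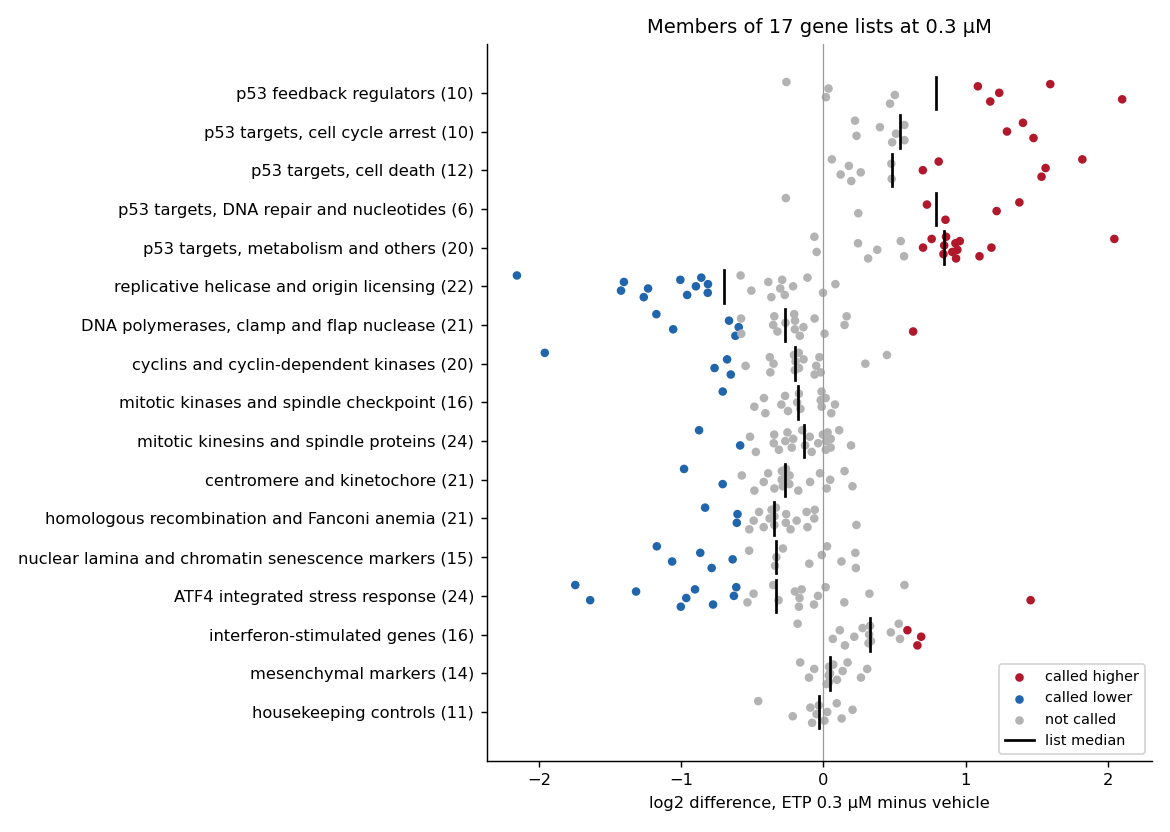
Log2 difference, ETP 0.3 µM minus vehicle, of each measured member of 17 gene lists (number of genes in brackets). Red points were called higher, blue points lower and grey points were not called, and black bars mark list medians. The medians of the p53 lists lie right of 0, that of the helicase list left of it at −0.70, and that of the kinesin list close to 0 at −0.14.

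Some mitotic genes were called lower, as were 1.86% of all genes tested. Of 16 mitotic kinases and checkpoint proteins 1 was called lower, of 24 kinesins and spindle proteins 2, and of 21 centromere and kinetochore proteins 2, with 0 higher in each and medians of −0.18, −0.14 and −0.27. SPC25, a subunit of the NDC80 complex, had 8.44, 7.77, 7.61, 7.60 and 7.87 in dosed cells, against 9.08, 8.83, 8.57, 8.81 and 8.91 in vehicle cells. The groups did not overlap, and the difference was −0.98 ± 0.11 (adjusted p = 4.0e-09). CENPA, the centromeric histone, fell by 0.71 ± 0.15, the kinase AURKB by 0.71 ± 0.16, and the kinesins KIF15 and KIFC1 by 0.88 ± 0.15 and 0.59 ± 0.13. AURKB and KIFC1 lost their calls without the replicate block (adjusted p of 0.052 and 0.11), and KIFC1 also when 1 of several arrays was left out. CENPA lost its call with the mean of its probe sets (−0.58). The CHR letters stood in 35 of the 51 promoters of these 3 lists, 68.6%. They stood in 24 of the 174 promoters of all genes called lower at 0.3 µM, 13.8%, and in 9.94% of those of all genes tested. The p53 lists had them in 7 of 49 promoters, 14.3%, and all genes called higher in 9.35%.

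Other mitotic genes did not pass at this dose. AURKA, the spindle pole kinase, had 10.94, 10.25, 10.55, 10.81 and 10.80 in dosed cells, against 10.84, 10.65, 10.60, 10.58 and 10.75 in vehicle cells. The dosed values spread on both sides of the vehicle values, with number 3 lowest, and the difference was −0.01 ± 0.14 (adjusted p = 0.95). HMMR, a spindle assembly protein, differed by 0.19 ± 0.12 and CENPF by 0.02 ± 0.12. TOP2A, the target of etoposide in dividing cells, had 12.13, 10.70, 12.07, 12.10 and 11.80 in dosed cells, against 11.91, 11.63, 11.26, 12.09 and 11.65 in vehicle cells. The dosed value of number 3 lay below all the other values, and the groups overlapped (difference 0.05 ± 0.13; adjusted p = 0.77). TOP2B, its paralog in resting cells, and TDP2, which removes trapped topoisomerase II from DNA ends, differed by −0.03 ± 0.04 and −0.11 ± 0.05. Of 13 topoisomerases and genes for removal of their adducts 0 were called, with a range of −0.39 to 0.07.

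Mitotic lists were closer to vehicle at 0.3 µM than at the doses on either side. Over the doses 0.03, 0.1, 0.3, 1 and 3 µM, the median difference of the kinesin list from the same-numbered vehicle was −0.59, −0.72, −0.03, −0.40 and −1.10 (the median of 5 numbers). The kinase list gave −0.56, −0.60, −0.10, −0.51 and −1.16, and the centromere list −0.57, −0.76, −0.21, −0.39 and −0.96. The same order was seen in lists outside mitosis. At 0.1, 0.3 and 1 µM the homologous recombination list gave −0.72, −0.27 and −0.42, the polymerase list −0.72, −0.26 and −0.29, the condensin and cohesin list −0.63, −0.31 and −0.50, and the lamina and chromatin list −0.52, −0.31 and −0.53. Over the doses from 0.03 to 3 µM the 20 further p53 targets gave 0.29, 0.55, 0.87, 1.07 and 1.02, and the helicase list −0.68, −0.88, −0.67, −0.66 and −0.92. These medians share the same vehicle arrays.

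**Figure D3:**
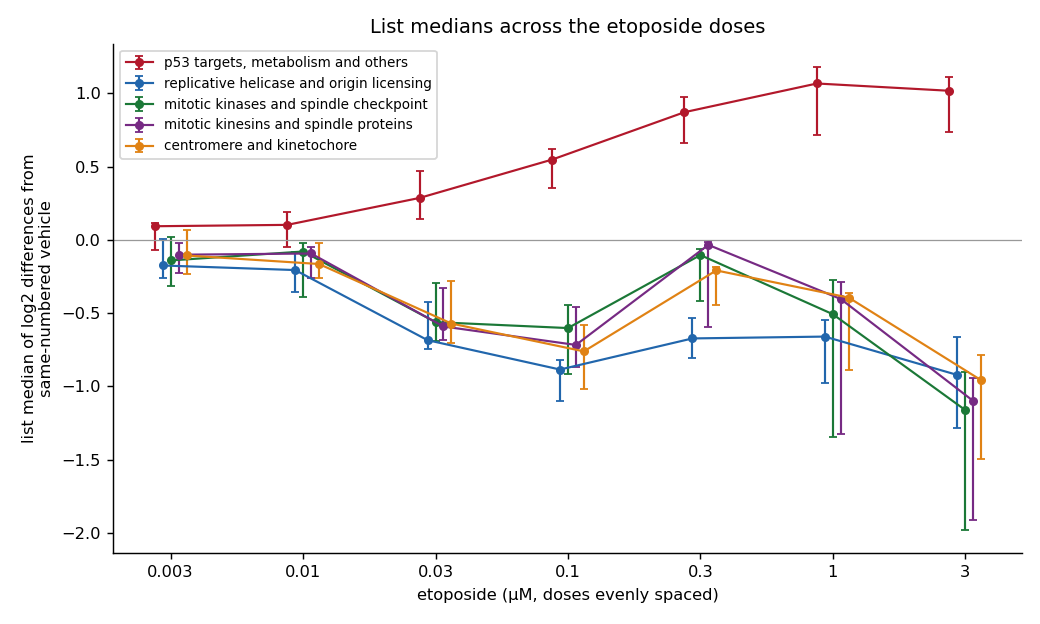
Median log2 difference from the same-numbered vehicle for 5 gene lists at the 7 etoposide doses (µM, evenly spaced). Points are the median of 5 replicate numbers and bars run from the lowest to the highest number. The 3 mitotic lists lie at −0.03 to −0.21 at 0.3 µM and lower at 0.1 and at 1 µM.

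Set directly against 0.1 µM, 106 genes differed at 0.3 µM (0.905% of those tested), 94 higher (0.802%) and 12 lower (0.102%). Of the 94, 40 were also called higher at 0.3 µM against vehicle, TREM2 among them. Of the 12, 9 were also called lower against vehicle. Without the replicate block the counts were 32, 29 and 3. The mitotic and repair genes named here were taken from the lists after their values were seen. HMMR had 10.68, 10.07, 10.43, 10.54 and 10.60 at 0.3 µM, against 10.33, 9.85, 9.57, 9.72 and 9.89 at 0.1 µM. Each number was higher at 0.3 µM than at 0.1 µM, and the difference was 0.59 ± 0.12 (adjusted p = 8.8e-04). CENPI had 7.07, 5.89, 5.93, 6.30 and 6.45 at 0.3 µM, against 6.08, 5.65, 4.96, 5.50 and 5.48 at 0.1 µM (0.79 ± 0.12). The groups overlapped while each number was again higher at 0.3 µM. In all 6 of 24 kinesin and spindle genes, 6 of 21 centromere genes and 2 of 16 mitotic kinases were called higher at 0.3 than at 0.1 µM, and 0 lower. In the kinesin list these were NUSAP1, KIF20B, CENPE, KIF2C, TPX2 and HMMR, with differences of 0.59 to 0.72. CDK1, the mitotic kinase, was higher by 0.67 ± 0.13 and CDT1 by 0.61 ± 0.09.

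Among 21 homologous recombination and Fanconi anemia genes, 5 were higher at 0.3 than at 0.1 µM, where 0.802% of all genes tested were. BRIP1, a helicase that partners BRCA1, had 7.70, 7.10, 6.38, 7.23 and 7.31 at 0.3 µM, against 6.93, 6.55, 5.74, 6.29 and 6.21 at 0.1 µM. Each number moved the same way, by 0.80 ± 0.13 on average (adjusted p = 6.1e-05), and the groups overlapped. The helicase BLM, FANCM, RAD51AP1 and RAD54B were higher by 0.61 to 0.75. Against vehicle this list had 3 members lower, EXO1 (−0.83), BARD1 (−0.61) and UBE2T (−0.60), and a median of −0.35. None of the 3 was called in every setting. EXO1 ranged from −0.88 to −0.62 over the settings other than the 2-fold limit. BARD1 and UBE2T stood close to the fold limit and lost their calls when some single arrays were left out, BARD1 at −0.54 and UBE2T at −0.55 without replicate 3. Without the replicate block the adjusted p of BARD1 was 0.059.

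MCM6 went the other way. It had 8.89, 8.84, 8.06, 8.17 and 8.32 at 0.3 µM, against 9.73, 9.21, 9.00, 9.13 and 9.18 at 0.1 µM, lower in each number by 0.79 ± 0.09 on average (adjusted p = 1.1e-06). Its means over the doses 0.003, 0.01, 0.03, 0.1, 0.3, 1 and 3 µM were 10.48, 10.39, 9.92, 9.25, 8.46, 8.16 and 8.25, and its vehicle mean was 10.61. The step between 0.3 and 1 µM was not called (−0.30 ± 0.09). SCARNA15, a small Cajal body RNA, was lower at 0.3 than at 0.1 µM by 0.73 ± 0.08. Of 22 helicase and licensing genes, MCM6 was the 1 called lower in this contrast, and CDT1 and GINS1 (0.61 ± 0.11) were called higher.

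At 1 µM against 0.3 µM 64 genes differed (0.546%), 40 higher (0.341%) and 24 lower (0.205%), and 15, 10 and 5 did without the replicate block. Of the 40 higher, 32 were also called higher at 0.3 µM against vehicle, TREM2 among them. Of the 24 lower, 3 were also called lower at 0.3 µM against vehicle. Mitotic kinases were among the 24 lower ones. NEK2, a centrosomal kinase, had 9.38, 8.27, 8.65, 9.39 and 9.19 at 1 µM, against 9.83, 9.21, 9.55, 9.68 and 9.71 at 0.3 µM. Number 3 was lowest at both doses, and the difference was −0.62 ± 0.14 (adjusted p = 4.7e-03). PLK1, UBE2C, BUB1, CDC20 and AURKA were lower by 0.58 to 0.68, so that 6 of 16 mitotic kinase and checkpoint genes were lower at 1 than at 0.3 µM. In the centromere list CENPA, HJURP and NDC80 were lower by 0.68 to 0.71, and of the kinesin and spindle genes ASPM was (−0.68). The nuclear lamina gene LMNB1 was lower by 0.60 ± 0.09. The lower genes named by rank in this contrast were TROAP, a spindle protein, NLGN1, NAV2, ADAMTS3 and CEP128, a centriole protein, with differences of −0.81 to −0.66. The CHR letters stood in 20 of the 80 promoters of genes higher at 0.3 than at 0.1 µM, 25.0%. They stood in 7 of the 19 promoters of genes lower at 1 than at 0.3 µM, 36.8%, a small number. Over all genes tested the share was 9.94%.

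**Figure D4:**
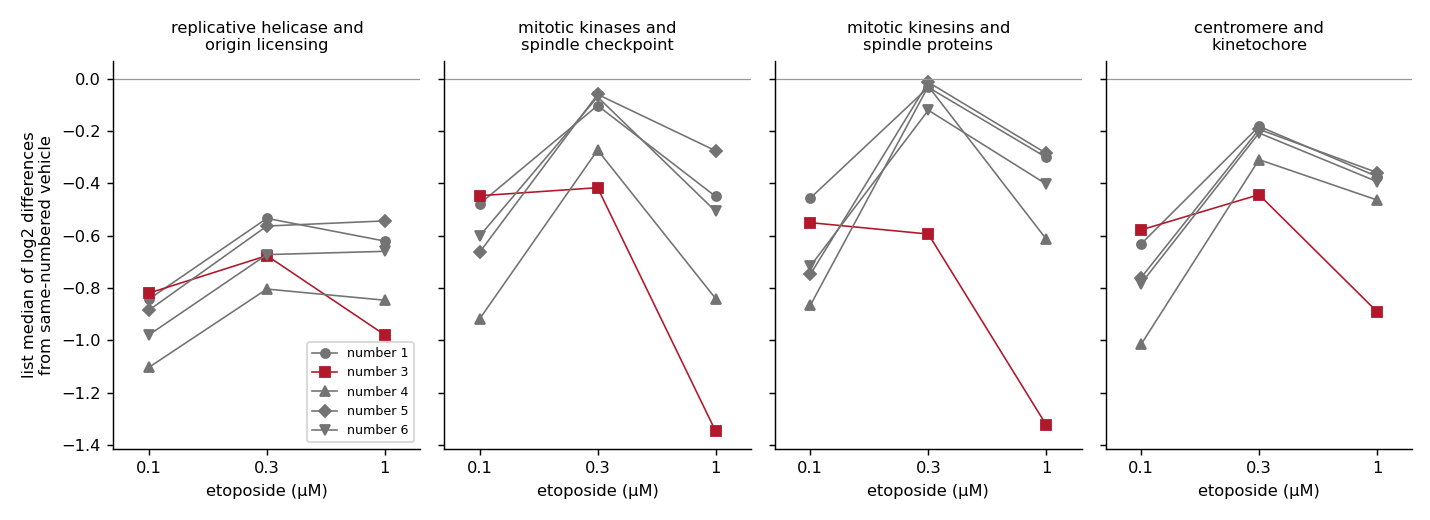
List medians of log2 differences from the same-numbered vehicle at 0.1, 0.3 and 1 µM etoposide for 4 gene lists, with 1 line for each replicate number and number 3 in red. In the kinesin list number 3 stood at −0.59 at 0.3 µM and the other numbers between −0.12 and −0.01.

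The 0.3 µM array of number 3, which has a suffix in its title that the labels do not explain, stood apart in these lists. Its kinesin list median was −0.59, against −0.03, −0.03, −0.01 and −0.12 in numbers 1, 4, 5 and 6. Its kinase list median was −0.42, against −0.27 to −0.06 in the others. In number 3 the kinesin list median was not closer to vehicle at 0.3 µM, at −0.59 against −0.55 at 0.1 µM, while in the other 4 numbers it was. At 1 µM number 3 was again lowest in the kinesin list, at −1.32 against −0.61 to −0.29. The fit without replicate 3 called 196 genes against 0.1 µM in place of 106, 176 of them higher in place of 94. Without replicate 4, the 1 µM contrast called 38 genes in place of 64. The title of the 1 µM array of number 4 carries the same suffix as that of the 0.3 µM array of number 3. So do those of the 0.03 µM array of number 3 and of a 0.01 µM array of number 6.

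Of 24 genes of the ATF4 integrated stress response, which supplies amino acids and their transporters, 9 were called lower and 1 higher, with a median of −0.33. Of all genes tested 1.86% were lower and 3.3% higher, so 1 higher of 24 is near the general share. By number, the list median was −0.02 in number 3 and −0.51 to −0.44 in the other 4. ASNS, asparagine synthetase, had 8.77, 8.03, 9.31, 8.05 and 8.25 in dosed cells, against 10.08, 8.93, 11.21, 10.31 and 10.60 in vehicle cells. Number 3 had the lowest vehicle value and number 4 the highest value in both groups, and the groups overlapped. Each dosed value was below its own vehicle, by 1.75 ± 0.19 on average (adjusted p = 1.6e-09). SLC7A11, the cystine transporter, fell 2.49-fold, with a mean of 7.53 ± 0.51 in dosed and 8.84 ± 0.17 in vehicle cells (SD, n = 5 each). The amino acid transporters SLC1A4 and SLC7A5 fell by 1.64 and 1.00, and in both the vehicle value of number 3 lay far below the other 4. ATF4 itself fell by 0.61, TRIB3 by 0.63 and PSAT1 by 0.97. The 1 called higher was ATF3, also a damage-induced factor, which had a mean of 6.94 ± 0.28 in dosed and 5.49 ± 0.44 in vehicle cells. With number 2 kept and no replicate block the adjusted p was 0.10 for ASNS, 0.29 for SLC7A11 and 0.25 for SLC1A4. Endoplasmic reticulum chaperones and heat shock proteins had 0 called of 18 and of 14.

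MYC, a transcription factor of growth, fell. It had 7.79, 7.92, 7.93, 7.82 and 7.92 in dosed cells, against 8.79, 8.62, 9.13, 8.66 and 8.99 in vehicle cells. The dosed values had an SD of 0.06 and lay below all vehicle values, with a fall of 1.95-fold (adjusted p = 4.3e-12). MIR17HG, the host transcript of a microRNA cluster, fell by 1.19 ± 0.15 and lost its call with number 2 kept (−0.70, adjusted p = 0.078). Of 23 ribosome biogenesis genes 1 was called, UTP20 (−0.65), and of 26 ribosomal protein genes 0.

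Lamina, chromatin and other genes used as senescence markers were partly lower. LMNB1, lamin B1, had 9.83, 8.53, 9.12, 9.32 and 9.28 in dosed cells, against 10.58, 9.82, 9.75, 10.19 and 10.08 in vehicle cells. The groups overlapped at the dosed value of number 1, and each number fell, by 0.87 ± 0.09 on average (adjusted p = 2.1e-10). HELLS, a chromatin remodeller, UHRF1, which guides maintenance methylation, the methyltransferase EZH2 and LMNB2 fell by 1.17, 1.06, 0.79 and 0.64. These 5 of 15 were called lower and 0 higher, with a median of −0.33. CDKN2A, the gene of p16, stood at 3.97 ± 0.21 in dosed and 3.94 ± 0.17 in vehicle cells, not above background in either. Histone genes split: H2AC11, H2BC4, H2BC21 and H2BC5 rose by 1.29, 0.80, 0.76 and 0.76, while H4C3 fell by 0.86. With number 2 kept H2BC4, H2BC21 and H2BC5 differed by 0.45, 0.35 and 0.54 and were not called. Histone genes share much of their sequence, so that probe sets may not tell them apart and these values are uncertain. The cohesin genes STAG1 and SMC3 and separase (ESPL1) fell by 0.87, 0.84 and 0.63, among which SMC3 and ESPL1 were not stable. SMC3 differed by −1.90 in number 3 and by 0.15 in number 4, and lost its call without replicate 3 (−0.58). ESPL1 lost its call without replicate 5 (−0.57) and without the replicate block (adjusted p = 0.074).

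Regulators of apoptosis outside the p53 list moved in both directions. BCL2, an inhibitor of apoptosis, had 4.85, 4.65, 4.57, 4.27 and 4.43 in dosed cells, against 5.55, 5.49, 5.23, 5.21 and 5.40 in vehicle cells, without overlap (−0.82 ± 0.10; adjusted p = 3.3e-08). BCL2A1, a related inhibitor, fell by 0.93, whereas BCL2L1, which encodes BCL-XL, rose by 0.60 and BIK, a BH3-only protein, by 0.73. CASP1, the inflammatory caspase, rose by 0.83, and its 4 other probe sets were called as well. With the number 2 arrays kept, BCL2, BCL2A1 and CASP1 differed by −0.32, −0.37 and 0.49 and were not called. BCL2L1 lost its call without replicate 3 (0.54) and without replicate 6 (0.57).

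Secreted and immune genes moved in both directions. GDF15, a secreted stress factor and p53 target, had 12.29, 12.68, 12.75, 12.53 and 12.60 in dosed cells, against 11.11, 12.03, 11.90, 11.50 and 11.54 in vehicle cells. The groups did not overlap, and number 1 was lowest in both (0.95 ± 0.07; adjusted p = 3.1e-13). BMP2, a bone morphogenetic protein, rose by 1.19 ± 0.09 and TNFSF9, the 4-1BB ligand, 3.39-fold, with a mean of 8.84 ± 0.26 in dosed and 7.08 ± 0.22 in vehicle cells. IL6 rose by 0.67, with an adjusted p of 0.14 without the replicate block. CXCL8, a neutrophil chemokine, fell by 1.02 (−0.37 with number 2 kept, not called). Of 13 measured cytokines and chemokines 2 were higher and 1 lower, where 3.3% of all genes tested were higher and 1.86% lower. Of 16 interferon-stimulated genes IFIT1, IFI27 and IFI44 rose by 0.69, 0.66 and 0.59, with a list median of 0.32, and none of the 3 was called with number 2 kept. TAP1, the peptide transporter of class I presentation, rose by 0.92 ± 0.08, and CD274, the PD-1 ligand, fell by 0.73 ± 0.14 with an adjusted p of 0.33 without the replicate block.

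The largest rises among genes above background in both groups were led by NECTIN4, an adhesion protein of epithelia. It had 8.38, 6.87, 8.30, 8.44 and 8.10 in dosed cells, against 5.43, 5.43, 5.21, 5.32 and 4.79 in vehicle cells. The dosed value of number 3 lay below the other 4 and above all vehicle values, and the rise was 6.86-fold (2.78 ± 0.17; adjusted p = 2.3e-16). AKR1B10, an aldo-keto reductase, rose 5.46-fold, with a mean of 6.61 ± 0.62 in dosed and 4.17 ± 0.28 in vehicle cells, and of 6 aldo-keto reductases it was the 1 called. LRATD1, CCDST, TMT1A, SUGCT, GREB1, ASTN2 and PLAC8 rose by 1.87 to 2.22. ACTA2, smooth muscle actin, rose by 1.65 ± 0.08, whereas 13 of the 15 measured targets of TGF-beta, YAP and SRF were not called.

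Other rises began below background. TREM2, a receptor of the myeloid lineage, had 6.44, 6.44, 6.91, 7.69 and 7.72 in dosed cells, against 3.18, 3.59, 3.36, 3.07 and 3.56 in vehicle cells. All vehicle values were under 4, so the size of the difference, 3.69 ± 0.20, is uncertain. It was 5.07 ± 0.60 at 0.1 µM, 7.04 ± 0.64 at 0.3 µM and 8.19 ± 0.63 at 1 µM, and both steps were called (1.97 ± 0.20 and 1.15 ± 0.20). The sulfatase SULF2, CCDC148, MEGF6, CDH10 and LAPTM5, a lysosomal protein of blood cells, rose by 1.90 to 2.50 from vehicle means of 2.96 to 3.89. Of 15 blood cell markers on the array, 4 reached a mean of 4 in dosed and 3 in vehicle cells. The summed log2 level of the 15 was 56.6 to 60.2 in dosed and 49.6 to 55.0 in vehicle cells. TREM2 and TREM1 had the largest differences in that sum, so it does not show a rise across the list. TYROBP, the partner of TREM2, stood at 2.98 in dosed and 3.01 in vehicle cells, and CD14 at 2.65 and 2.63. Of the 4 blood cell markers that passed the filter on low values, TREM2 and TREM1, another myeloid receptor, were called higher, where 3.3% of all genes tested were. TREM2 passed that filter through etoposide arrays alone, so this count is partly set by the filter. TREM1 had 5.15, 7.19, 6.56, 6.37 and 6.29 in dosed cells, against 3.83, 6.43, 6.09, 5.18 and 5.54 in vehicle cells. The groups overlapped and each number was higher when dosed, by 0.90 ± 0.12 on average, with an adjusted p of 0.21 without the replicate block. Of 21 epithelial and squamous markers 7 reached 4 in dosed and 6 in vehicle cells, with sums of 93.3 to 96.5 in dosed and 87.4 to 90.5 in vehicle cells. Of the 7 that passed the filter, NECTIN4, CSTA and IVL were the 3 called, and they had the largest differences in the sum. The vehicle mean of CSTA was 3.70, so its place among the 7 rests mainly on etoposide arrays.

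**Figure D5:**
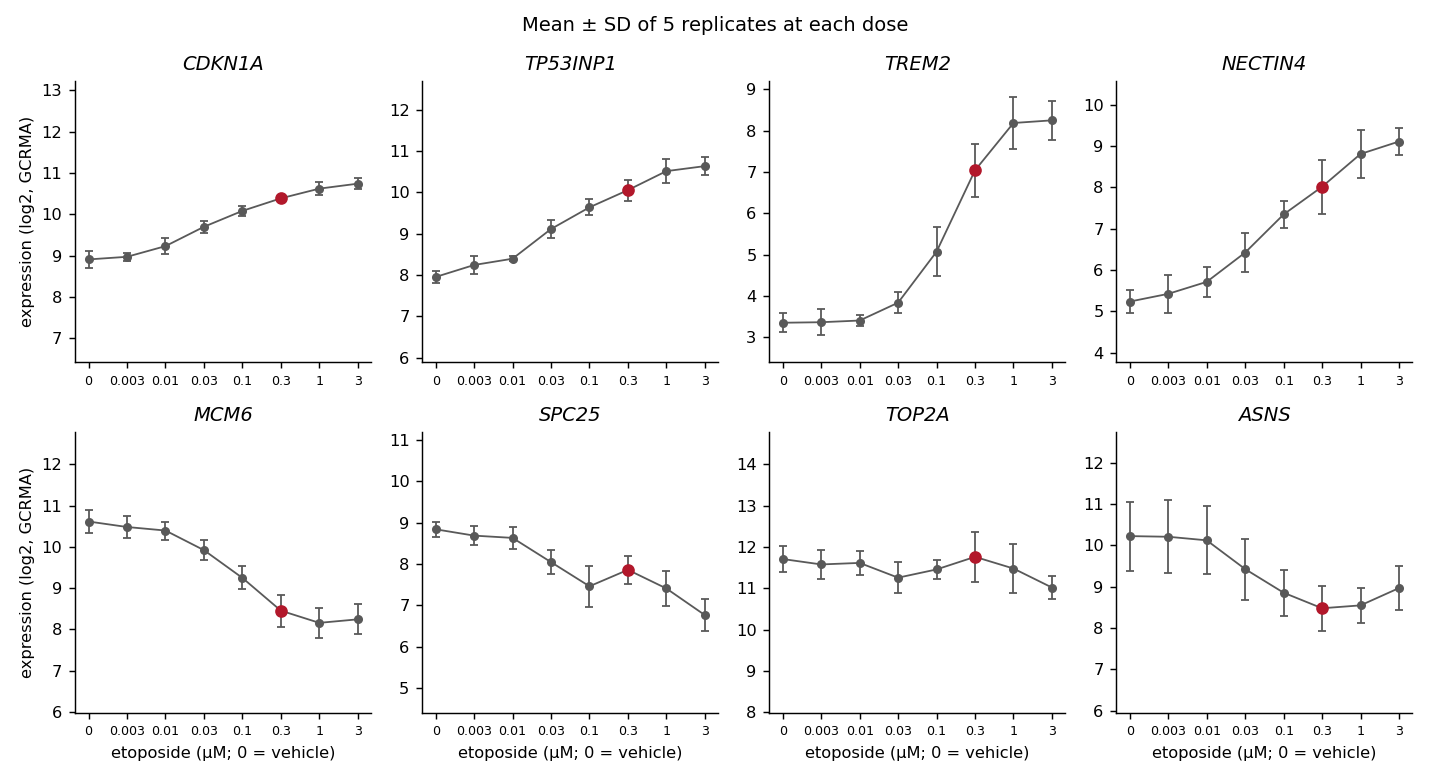
Mean and SD (n = 5) of the log2 expression of 8 genes in the vehicle group (0) and at 7 etoposide doses (µM, evenly spaced), with 0.3 µM in red. CDKN1A, TP53INP1, TREM2 and NECTIN4 rise over the doses to 0.3 µM and on to 3 µM, MCM6 is lower at 0.3 µM than at the lower doses, and SPC25 and TOP2A have higher means at 0.3 µM than at 0.1 or 1 µM, differences that were not called.

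Further large falls were ZNF367 and CDCA7, both linked to the cell cycle, by 1.77 and 1.46, PAQR4 by 1.24 and ESM1, endocan, by 1.35. FAM111B, a replication-linked protease, had 4.30, 3.63, 3.93, 3.97 and 3.19 in dosed cells, against 6.81, 6.32, 5.49, 7.64 and 6.24 in vehicle cells. Its dosed mean of 3.80 was not above background, so that its difference of −2.70 ± 0.26 is uncertain in size. ESM1 differed by −0.47 with number 2 kept and was not called (adjusted p = 0.49). UNG, the uracil glycosylase, and MSH6, a mismatch sensor, fell by 1.07 and 0.73, and MSH6 lost its call with number 2 kept (−0.54).

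The number 2 arrays that were left out differed from these values. Across the 11714 genes, the response of number 2 at 0.3 µM correlated at 0.07 with the mean response of the other numbers and at 0.85 with the response to 100 µM quercetin. For numbers 1, 3, 4, 5 and 6 these correlations were 0.62 to 0.88 and 0.14 to 0.24. They are descriptions across genes, which are not independent. MCM6 differed from vehicle by −0.14 in number 2 and by −2.42 to −1.45 in the others, while TREM2 differed by 4.22 and CDKN1A by 0.99. With number 2 kept 507 genes were called, 403 of them shared with the 604, and in the contrast with 0.1 µM 29 genes were.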

How the data were processed

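Affymetrix HT_HG-U133 Plus PM arrays measured RNA of HT-1080 cells. The deposited values are log2 expression per probe set, made by the authors with GCRMA and Partek per the submitters' processing notes, with versions and genome build not given in the sources used here. Of 54613 probe sets, 40914 had 1 gene symbol, 864 several and 12835 none, and 25612 had a value of at least 4 in at least 5 of the 40 etoposide and vehicle replicates. Each gene was represented by its kept probe set with the highest mean, leaving 11714 genes. The members and lists were chosen with earlier results of these data known. A linear model blocked on replicate number was fitted with limma 3.58.1 in R 4.3.3 over 8 groups (28 residual degrees of freedom), with Benjamini-Hochberg adjustment over all genes. Same-numbered dosed and vehicle arrays deviated together, with correlations of 0.78, 0.52, 0.34, 0.25 and 0.41 and a mean of 0.46, so the numbers were taken to pair the arrays. The mean for different numbers was −0.11. That value follows largely from centring each gene within its group and is not separate evidence of pairing. On simulated data, 100% of 200 changed genes were recovered at log2 changes of 1 and 2, with 0 false calls. The simulated noise was independent between genes and arrays, and no change under 1 was set. The real calls had medians of 0.80 (higher) and −0.73 (lower), so the simulation does not cover most of them or deviations shared across an array. Genes are named where they were among the 12 largest rises or falls without overlap and with both means at least 4, among up to 6 with 1 mean under 4, among up to 5 called members of a list, among the 5 largest differences in each direction from a neighbouring dose, or fixed by name; list members differing between neighbouring doses, and others given with a value, were added after their values were seen. Array medians were 3.54 to 3.56, and the number of arrays limits the precision. Alternatives varied the block, number 2, filter, probe set rule, normalization, fold limit and each replicate. Figures were drawn with matplotlib 3.10.9.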

Additional observations from a re-analysis of the deposited data

Results flagged for a closer look

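In 23 of 326 groups of 5 values, 7.06%, 1 value lay far from the other 4, and chance gives about 1 in 20. Among dosed arrays, number 3 was far below the others in ACER2 (5.48), NECTIN4 (6.87), TOP2A (10.70) and TROAP (7.49). Number 1 was far above in BCL2L1 (7.74) and CCNE2 (7.44) and far below in H2BC5 (9.05) and TGFA (10.98), and number 4 was far above in NAV2 (9.29). Among vehicle arrays, number 1 was far above in CDT1 (9.53), HELLS (9.73), IVL (4.82), MCM2 (10.34), MIR17HG (6.83), MSH6 (10.62), POLD3 (8.31) and ZNF367 (9.30). It was far below in H2BC5 (8.22), MCF2 (3.17) and TGFA (9.89). Vehicle number 3 was far below in SLC1A4 (5.11) and SLC7A5 (9.16), and number 4 in NUSAP1 (10.00). Of 3888 kept probe sets with no or several gene symbols, which the comparisons by gene did not use, 237 were called at 0.3 µM, 77 higher and 160 lower.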

How the results depend on the processing

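Against vehicle, the 604 calls became 548 (364 higher, 184 lower) without the replicate block, 507 (335 and 172) with number 2 kept and 378 (277 and 101) with number 2 kept and no block. They became 5163 (2784 and 2379) with no fold limit and 149 (107 and 42) at 2-fold. Between 0.3 and 0.1 µM, the 106 differences became 32 (29 and 3) without the replicate block, 29 (29 and 0) with number 2 kept, 1 (1 and 0) with number 2 kept and no block, 1116 (809 and 307) with no fold limit and 11 (8 and 3) at 2-fold. Between 1 and 0.3 µM, the 64 became 15 (10 and 5), 4 (3 and 1), 0 (0 and 0, by limma), 646 (233 and 413) and 5 (5 and 0) in the same settings. Leaving out 1 replicate number gave 591 to 720 against vehicle (368 to 494 higher, 211 to 276 lower), 78 to 196 against 0.1 µM (70 to 176, 8 to 20) and 38 to 79 at 1 µM (23 to 53, 15 to 37). The upper ends against 0.1 µM came without replicate 3, the low end at 1 µM without replicate 4 and the 37 lower without replicate 5. Leaving out 1 dosed array gave 589 to 668 and 1 vehicle array 599 to 675. The fit of the 2 groups alone gave 604, no filter 611, a filter at 5 567, the mean of probe sets 566, quantile normalization 613 and no variance trend 604. Of 119 called named genes, 73 were called in every setting but the 2-fold limit. EXO1, SLC7A5, UTP20, H2AC11, TMT1A and IVL were among those that lost their calls in some other setting. None of the 119 changed direction in any setting run. Some named genes that were not called did change sign between settings. HMMR ranged from −0.45 to 0.27, CENPF from −0.30 to 0.13 and TOP2A from −0.23 to 0.30. The cause of these changes was not tested.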
